A study of Mus musculus with 21 samples.

Results

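Granins are acidic proteins of the dense-core granules in which endocrine cells store their hormones, and secretagogin is a calcium-binding protein of islet cells. The genes described here are 5 granin genes, Chga, Chgb, Scg2, Scg3 and Vgf, and the secretagogin gene Scgn, chosen by name as 6 of the 21913 genes in the expression table. Each name matched 1 row, and all 6 passed the filter on low values. Inside the trans-Golgi network, granins aggregate with hormone precursors as calcium rises and pH falls, and this aggregation helps to form the granule core. Several granins are also cut by the prohormone convertases into peptides that are released with the hormone. In β-cells that hormone is insulin.

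The data are RNA-seq of sorted mouse β-cells, in 5 libraries labelled WT, 8 labelled Ldb1-KO and 5 labelled Isl1-KO. ISL1 is a transcription factor of the LIM-homeodomain family that islet cells express, and LDB1 is a co-regulator that joins such factors into complexes. The WT mice carried Rosa26LsLeYFP/LsLeYFP and MIP-CreERTm, a tamoxifen-activated Cre under an insulin promoter with a YFP reporter, and the knockout mice carried the same alleles plus Ldb1L/L or Isl1L/L. All were males of a mixed SV/129 and C57Bl/6 background. WT and Ldb1-KO mice received 5 gavages of tamoxifen at 150 µg per g from postnatal day 28, again from day 35, and cells were collected at day 56. The Isl1-KO mice received 100 µg per g from day 28 alone, and cells were collected at day 49, so in that group genotype, age and dose cannot be told apart. Recombination was limited to cells in which the insulin promoter drove Cre, and lineage-marked cells were sorted into TRIzol. The labels do not say that libraries came from separate mice, so p-values measure the spread between these libraries, which may be technical.

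The values are the authors' normalized expression on a log2 scale, read here as log2 of a quantile-normalized value plus 1. Whether they were divided by transcript length is not stated. Levels and ranks are therefore used to compare a gene with itself across libraries and not with other genes. Between 13353 and 14129 genes per library lay above 0, and read depth is unknown. Means are given ± SD over the 5 WT, 8 Ldb1-KO and 5 Isl1-KO libraries. Ldb1 lay at 7.51 ± 0.22 in WT and 6.40 ± 0.42 in Ldb1-KO, and limma called it lower (fell by 1.11, SE 0.18, adjusted p = 4.35e-05). Isl1 lay at 9.55 ± 0.11 in WT and 9.33 ± 0.26 in Isl1-KO, a difference of -0.22 with adjusted p = 0.431 by limma. The value covers the whole gene, so it does not check the deletion. On the second principal component, with 16.0% of the variance, Isl1-KO replicates 1 to 3 lay between -56.6 and -47.4 and replicates 4 and 5 at -0.19 and 0.76. All 8 β-cell markers, Ins1, Ins2, Mafa, Slc2a2, Ucn3, Nkx6-1, Pdx1 and G6pc2, were above 0 in every library.

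In textbook accounts several granin genes are activated through cyclic AMP response elements (CREs), bound by CREB, and kept silent by the repressor REST outside neuroendocrine cells. Promoter stretches are shown for the 4 granin genes in which the CRE core was found. Chgb and Scg2, whose RNA moved in opposite directions below, both hold the whole palindrome. A link between these letters and the RNA changes was not tested. Each stretch is the 120 bases before the RefSeq start in build GRCm38.p6, 5′ to 3′ on the gene's strand. The CRE core TGACG on either strand is in capitals. Where 2 cores overlap they form the palindrome TGACGTCA.
Chgb, chr2:132781522-132781641, plus strand: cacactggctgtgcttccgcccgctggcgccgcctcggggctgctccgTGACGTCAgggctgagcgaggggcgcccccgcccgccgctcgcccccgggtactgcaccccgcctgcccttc
Scg2, chr1:79440027-79440146, minus strand: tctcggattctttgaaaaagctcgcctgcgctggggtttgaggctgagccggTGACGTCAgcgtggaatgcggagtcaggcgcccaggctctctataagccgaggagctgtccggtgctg
Chga, chr12:102554821-102554940, plus strand: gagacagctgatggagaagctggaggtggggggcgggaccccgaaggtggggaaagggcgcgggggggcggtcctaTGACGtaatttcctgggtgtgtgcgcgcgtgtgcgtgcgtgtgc
Scg3, chr9:75684057-75684176, minus strand: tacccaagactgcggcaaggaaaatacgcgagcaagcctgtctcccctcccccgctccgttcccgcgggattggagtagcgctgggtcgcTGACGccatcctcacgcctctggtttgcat

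The search covered the 250 bases before the start, on both strands, in the 5 members that RefSeq's promoter table lists (Vgf has no entry in it). The palindrome TGACGTCA stood at -72 to -65 from the start in Chgb and at -68 to -61 in Scg2. Of all 32851 promoter entries, 1.55% hold it in the same window. The core alone stood at -44 to -40 in Chga and at -30 to -26 in Scg3, and 17.8% of all entries hold at least 1 core. Scgn had no core in this window. The letters TAATTA, a core bound by many homeodomain proteins, were in 0 of the 5, against 4.84% of all entries. A match of letters is not evidence of binding. The peak lists of LDB1 and ISL1 are in another build, mm9, and were not placed on these genes.

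In Ldb1-KO, 3 granin genes rose and 1 granin gene and Scgn fell, while Vgf did not pass. On ranks within the library, 2 members were called higher and 2 lower, since Chga was not called, and Scg3 lost its call in 6 of 31 alternative fits. Chgb rose most, by 3.76 on the log2 scale, to rank 1 or 2 of all genes in each library, and Scg2 fell by 1.48. Of the 13501 genes tested, limma called 21.7% in this comparison, 10.6% higher and 11% lower, at a Benjamini-Hochberg adjusted p under 0.05. Among the 16 genes with a mean log2 value of at least 13, 4 of them members, the share called was 62.5%. The median absolute log2 difference was 1.22 over the 6 members, 0.30 over all genes tested and 1.25 over those 16 genes. In 4 of the 6 members the Ldb1-KO and WT libraries did not overlap, as in 10.8% of all genes.

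In Isl1-KO, Chgb and Vgf rose and Scg2 and Scgn fell, while Chga and Scg3 did not pass. On ranks, 2 members were called higher and 1, Scgn, lower. Of all genes tested, limma called 15.4%, 7.02% higher and 8.39% lower, and it called 37.5% of the 16 genes with a mean of at least 13. In 4 members, Chgb, Vgf, Scg2 and Scgn, the Isl1-KO and WT libraries did not overlap, against 10.7% of all genes. Both knockouts were set against the same 5 WT libraries, so both sets of differences share those values. The median absolute difference was 1.13 over the members, 0.30 over all genes tested and 0.55 over those 16 genes. In the authors' deposited table, at an FDR under 0.05, 3 members were higher and 2 lower in each knockout, where 11.9% of its rows passed for Ldb1-KO and 9.16% for Isl1-KO.

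**Figure D1:**
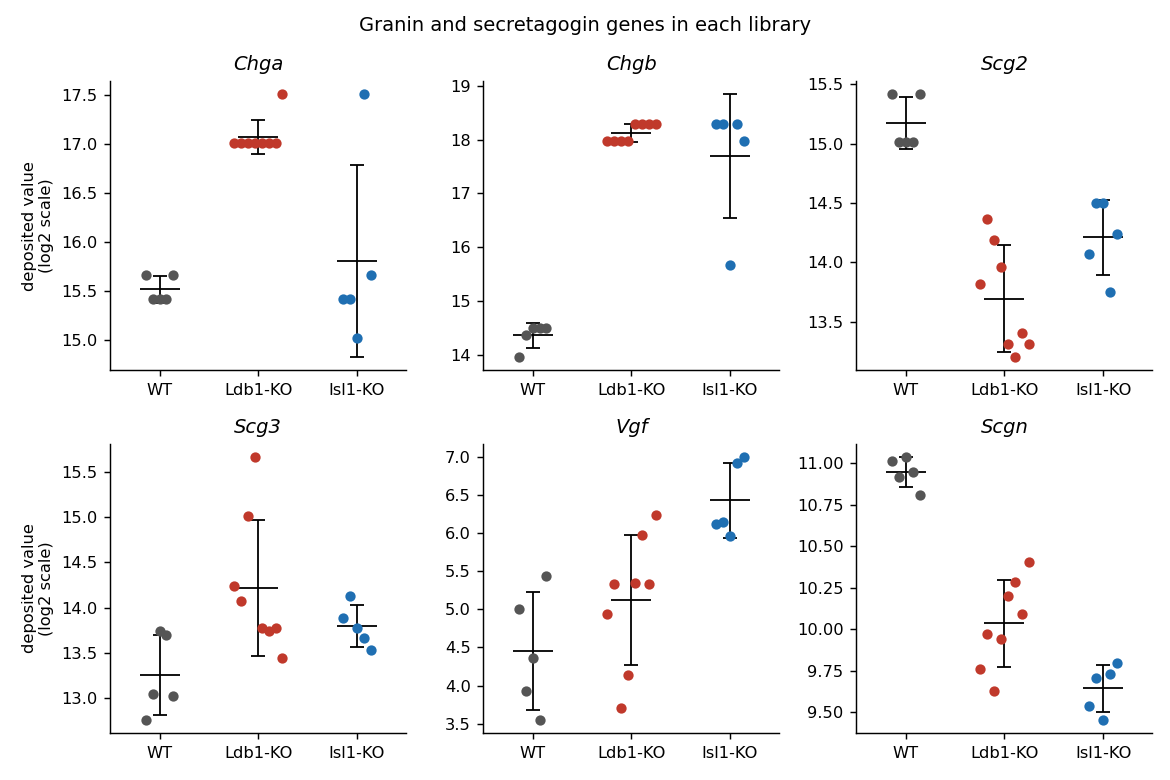
Deposited value on a log2 scale (y axis, a separate range in each panel) of the 6 genes in each library of WT, Ldb1-KO and Isl1-KO, with 1 point per library and the group mean ± SD in black. Chgb is higher in every knockout library than in any WT library, and Scg2 and Scgn are lower in every one.

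Chgb encodes chromogranin B, a major soluble granule protein that in mice has been linked to the packing of insulin. In the WT libraries, replicates 1 to 5, it lay at 13.96, 14.37, 14.50, 14.50 and 14.50. In Ldb1-KO it lay at 17.98 in replicates 1 to 4 and at 18.29, the highest value that any library holds, in replicates 5 to 8. Every Ldb1-KO library was above every WT library. From a WT mean of 14.37 ± 0.23 it rose to 18.13 ± 0.17, a limma difference of 3.76 (SE 0.32, adjusted p = 2.91e-08), or 13.6-fold. In rank terms Chgb went from between rank 7 and rank 11 in WT to rank 1 or 2 in all 8 libraries.

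The Isl1-KO libraries held Chgb at 18.29, 18.29, 15.66, 18.29 and 17.98 in replicates 1 to 5. Replicate 3 was the low one, at rank 4 in place of rank 1 or 2, and was still above all WT libraries. The mean was 17.70 ± 1.15. The limma difference from WT was 3.33 (SE 0.35, adjusted p = 1.50e-06), or 10.1-fold. Without Isl1-KO replicate 3 the rise was 3.84. For Chgb, the log2 fold changes against WT in the authors' deposited table were 3.33 (Ldb1-KO) and 3.30 (Isl1-KO group).

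Values at the top of each library lie on a coarse ladder of steps that the libraries share, with a gap of up to 1.02 between neighbouring steps. A log2 difference of the highest genes is therefore set in part by which other genes stand above them. Ins2 stood at ranks 1 to 2 in WT and 5 to 15 in Ldb1-KO, and Ins1 at 2 to 3 and 6 to 42. Malat1 stood at ranks 4 to 14 in WT and 1 to 4 in Ldb1-KO. In Isl1-KO the ranks were 1 to 5, 5 to 6 and 3 to 5. The part of these genes in the Chgb and Chga differences was not tested. The step at a given rank also differed between libraries, and at rank 4 it ranged from 15.66 to 17.01. Some libraries lack some steps. The step 17.51, held by every Ldb1-KO library, is absent from every WT library. A rank counts only the genes listed, so equal ranks need not be equal steps. Chgb passed on the ranks as well, with limma on normal scores of the within-library ranks giving adjusted p = 1.05e-05 in Ldb1-KO and 1.29e-04 in Isl1-KO.

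**Figure D2:**
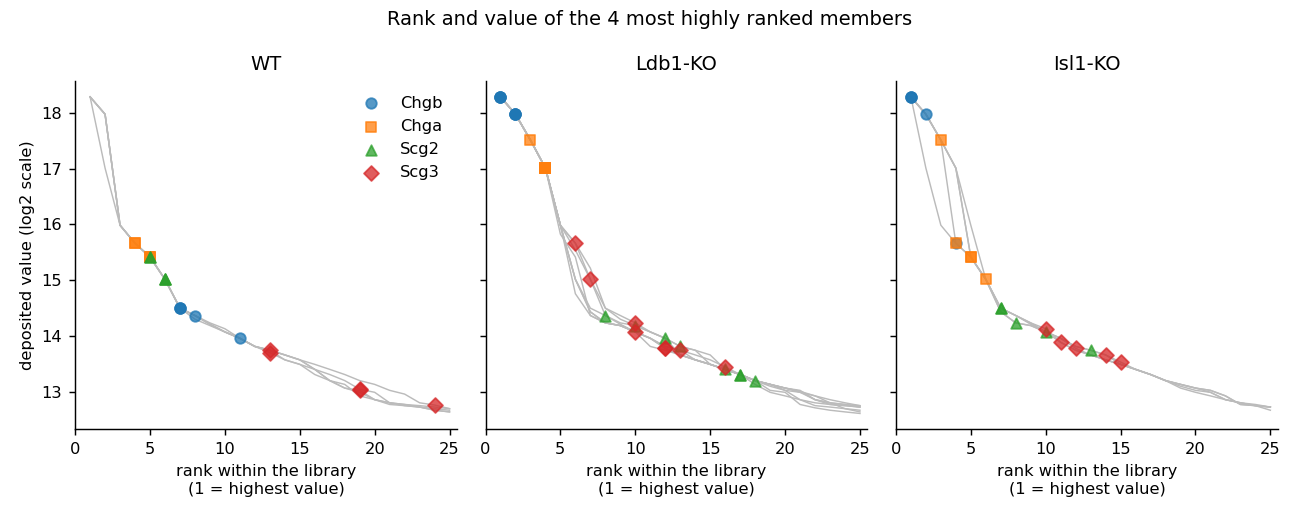
Deposited value (y axis, log2 scale) against rank within the library (x axis, 1 is the highest value) for Chgb, Chga, Scg2 and Scg3 in each group, with 1 grey line per library for its 25 highest values. Chgb moves from ranks 7 to 11 in WT to ranks 1 and 2 in Ldb1-KO, while Chga stays between rank 3 and rank 6 in all groups, where the steps are widest.

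Chga encodes chromogranin A, a granule protein used as a marker of neuroendocrine cells and the precursor of peptides such as pancreastatin and vasostatin. It lay at 15.66 in WT replicates 1 and 5 and at 15.42 in the other 3. In Ldb1-KO it lay at 17.01 in 7 libraries and at 17.51 in replicate 8, all above WT. The log2 difference was 1.56 (SE 0.27, adjusted p = 1.65e-04 by limma). Its rank, however, was 4 or 5 in WT and 3 or 4 in Ldb1-KO. At rank 4 it had the value 15.66 in the WT libraries and 17.01 in the Ldb1-KO libraries. The fit on ranks did not call it (adjusted p = 0.380 by limma). Since steps above Chga are missing from the WT libraries, the ranks cannot settle whether it rose. Its log2 fold change was 0.76 in the authors' deposited table (FDR 0.00178).

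In Isl1-KO, Chga lay at 15.42, 15.42, 15.02, 17.51 and 15.66 in replicates 1 to 5. Replicate 4 alone was far above WT, and 3 of the 5 libraries were below the WT mean. The difference of 0.29 did not pass (SE 0.30, adjusted p = 0.564 by limma). Without Isl1-KO replicate 4 it was -0.14 (adjusted p = 0.541), and with replicates 4 and 5 as the only Isl1-KO libraries it was 1.07 (adjusted p = 0.0295). The authors' deposited table, in contrast, lists a log2 fold change of 1.07 with an FDR of 1.64e-05. Over all genes tested, the median gap between the authors' fold change and the difference computed here was -0.14 in this comparison, which is smaller than the gap for Chga and of opposite sign.

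Scg3 encodes secretogranin III, which binds cholesterol-rich membrane and tethers chromogranin A to the forming granule. In WT replicates 1 to 5 it lay at 12.76, 13.05, 13.75, 13.70 and 13.03. The Ldb1-KO libraries spread more widely, from 13.45 to 15.66 with a median of 13.93, and replicates 3 and 4 were the highest at 15.02 and 15.66. The groups overlapped, though 8 of 8 libraries lay above the WT mean. The rise was 0.96 (SE 0.30, adjusted p = 0.0239 by limma). The call was lost without WT replicate 1, 2 or 5, with adjusted p = 0.0741, 0.0582 and 0.0631. A split of the Ldb1-KO libraries chosen after the values were seen is no test and gives effect sizes only. The difference was 0.43 with replicates 1 to 4 left out and 1.49 with replicates 5 to 8 left out.

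The 5 Isl1-KO libraries held Scg3 at 13.89, 14.13, 13.78, 13.66 and 13.53. All were above the WT mean and overlapped the upper WT libraries, and the difference of 0.54 did not pass (95% interval -0.14 to 1.23, adjusted p = 0.291 by limma).

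Scg2 encodes secretogranin II, the precursor of the peptide secretoneurin. It lay at 15.42, 15.02, 15.02, 15.02 and 15.42 in WT replicates 1 to 5, at rank 5 or 6. In Ldb1-KO it ranged from 13.20 to 14.37 with a median of 13.61, at ranks 8 to 18. No Ldb1-KO library reached the lowest WT library. Its mean was 15.18 ± 0.22 in WT and 13.69 ± 0.45 in Ldb1-KO. It fell by 1.48 (limma SE 0.19 and adjusted p = 2.14e-06), or 2.79-fold. The fit on ranks also called it (adjusted p = 1.83e-04).

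In Isl1-KO replicates 1 to 5, Scg2 lay at 14.07, 14.50, 14.50, 13.75 and 14.24, again all below WT. It fell by 0.96 (SE 0.21, adjusted p = 0.00223 by limma), or 1.95-fold. On ranks, which were 5 or 6 in WT and 7 to 13 here, this fall did not pass (adjusted p = 0.0841). In the authors' deposited table the log2 fold changes of Scg2 were -1.70 and -1.09.

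Vgf encodes a precursor of several secreted peptides and is known as a gene induced by nerve growth factor. It was weakly expressed, far from the coarse steps. The WT libraries held it at 5.01, 3.92, 4.36, 3.55 and 5.43 in replicates 1 to 5. In Isl1-KO replicates 1 to 5 it lay at 6.12, 6.14, 5.97, 6.92 and 7.002, all above the highest WT library. It rose by 1.98 (SE 0.42, adjusted p = 0.00243 by limma), or 3.94-fold on the scale of values plus 1. In Ldb1-KO it ranged from 3.70 to 6.23 with a median of 5.34, overlapping WT and reaching above it. The difference of 0.67 did not pass (95% interval -0.11 to 1.46, adjusted p = 0.227 by limma), and 6 of 8 libraries lay above the WT mean. With Ldb1-KO replicates 1 to 4 left out the difference was 1.27, and with replicates 5 to 8 left out it was 0.076. This split was chosen after the values were seen, so it is no test.

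Scgn encodes secretagogin, a cytosolic EF-hand protein that senses calcium and takes part in insulin granule release. Its values had the smallest spread of the 6 genes within the WT group. They lay at 11.01, 10.92, 11.04, 10.95 and 10.81 in WT replicates 1 to 5, between ranks 143.5 and 187, where the steps between values are fine. In Ldb1-KO they ranged from 9.63 to 10.41 with a median of 10.03, at ranks 293 to 710. In Isl1-KO replicates 1 to 5 they were 9.54, 9.71, 9.46, 9.73 and 9.80, at ranks 599.5 to 867.5. All 13 knockout libraries were below all 5 WT libraries. By limma, Scgn fell by 0.91 with SE 0.12 in Ldb1-KO (adjusted p = 4.00e-06), or 1.88-fold. In Isl1-KO it fell by 1.30 with SE 0.13 (adjusted p = 2.46e-07), or 2.46-fold. The fit on ranks gave adjusted p = 7.63e-06 and 3.51e-07.

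Set directly against each other, the knockouts differed in 3 members at the threshold, 2 higher and 1 lower in Ldb1-KO. Of all genes tested, limma called 13.3%, 6.96% higher and 6.31% lower. The libraries of the 2 knockouts overlapped in all 6 genes, and they did not overlap in 4.78% of all genes. Vgf was lower in Ldb1-KO than in Isl1-KO, by -1.31 (SE 0.38, adjusted p = 0.0258 by limma), with 8 of 8 Ldb1-KO libraries below the Isl1-KO mean. Scgn was higher in Ldb1-KO by 0.39 (SE 0.12, adjusted p = 0.0317). The Scgn call was lost in 12 of 31 alternative fits and the Vgf call in 6 of 31, among them fits without single Isl1-KO libraries.

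Chga was higher in Ldb1-KO by 1.27 on the deposited values (SE 0.27, adjusted p = 0.00316 by limma), but not on ranks (adjusted p = 0.482). The authors' deposited table gives it the opposite sign, a log2 fold change of -0.33 with an FDR of 0.355, and it calls 3 members and 6.07% of its rows in this comparison. For Chgb the difference was 0.43 (95% interval -0.23 to 1.09, adjusted p = 0.400), and it turned to -0.078 without Isl1-KO replicate 3. For Scg2 it was -0.52 (95% interval -0.90 to -0.13, adjusted p = 0.0668), which passed the threshold in 5 of 31 alternative fits. With Ldb1-KO replicates 1 to 4 left out it was -0.90, and with replicates 5 to 8 left out it was -0.13, a split chosen after the values were seen. The authors' deposited table calls Scg2 lower here, with a log2 fold change of -0.62 and an FDR of 0.00501. Scg3 differed by 0.42 (95% interval -0.20 to 1.04, adjusted p = 0.380), and by 0.21 without Ldb1-KO replicate 4. In the same split, Scg3 differed by -0.11 with Ldb1-KO replicates 1 to 4 left out and by 0.95 with replicates 5 to 8 left out. A p above the threshold does not show that the knockouts have the same level.

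**Figure D3:**
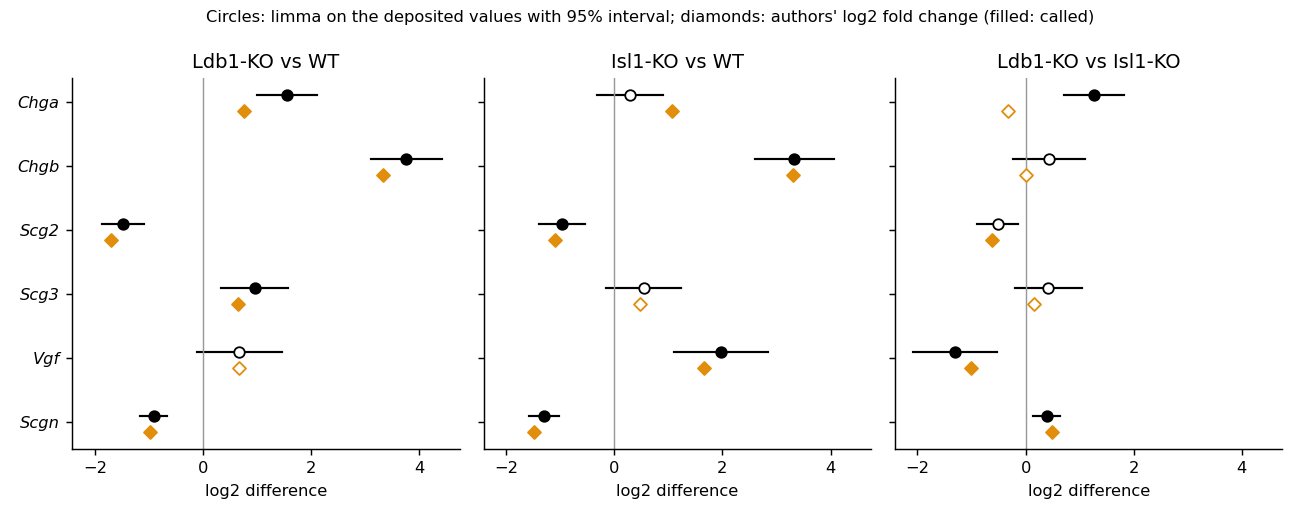
Log2 difference (x axis) of each gene in the 3 comparisons, with circles for limma on the deposited values and bars for the 95% interval, and diamonds for the log2 fold change in the authors' deposited table, filled where called. The 2 sources lie close for Scg2 and Scgn and lie furthest apart for Chga, whose difference between the knockouts is 1.27 in one and -0.33 in the other.

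Within the Ldb1-KO group, the libraries numbered 1 to 4 and 5 to 8 lay apart in 4 of the 6 genes, a split chosen after the values were seen, under which 14.6% of all genes tested lay apart. Scg2 was at 13.81 to 14.37 in the first and 13.20 to 13.40 in the second, and Scg3 at 14.07 to 15.66 and 13.45 to 13.78. Scgn ran the other way, at 9.63 to 9.97 in replicates 1 to 4 and 10.10 to 10.41 in replicates 5 to 8, and Chgb lay 1 step higher in the latter. Vgf, at 3.70 to 5.34 and 5.34 to 6.23, overlapped barely. In Isl1-KO, replicates 1 to 3 and 4 to 5 were apart in 4 of the 6 genes, Chga, Scg3, Vgf and Scgn, but 46.6% of all genes tested were apart in the same way. The labels name no batch, and the cause was not tested.

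**Figure D4:**
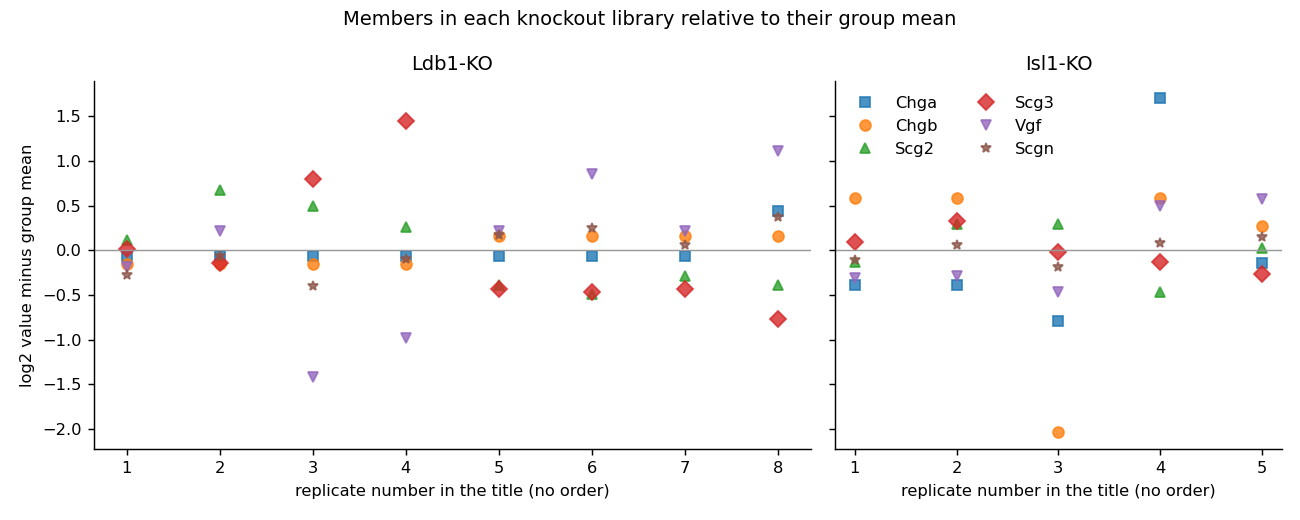
Log2 value of each gene minus its group mean (y axis) in every Ldb1-KO and Isl1-KO library (x axis, replicate number, which carries no order). Scg3 and Scg2 are higher and Scgn and Chgb lower in Ldb1-KO replicates 1 to 4 than in 5 to 8, and the farthest points are Chgb in Isl1-KO replicate 3 and Chga in Isl1-KO replicate 4.

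Granins are made by all islet endocrine cells, so markers of those cells are given beside these results. In bulk RNA, fewer cells of a type and less RNA per cell cannot be told apart. The summed values of the 6 α-cell markers in the table ranged from 3691 to 4577 in WT, from 11258 to 53602 in Ldb1-KO and from 7870 to 15986 in Isl1-KO. Of the 5 α-cell markers tested, Gcg, Ttr and Irx2 rose and Slc7a2 fell in Ldb1-KO, while in Isl1-KO Ttr rose and Slc7a2 fell. Gcg, the glucagon gene, ranged from 7.47 to 9.21 in WT, from 9.81 to 13.31 in Ldb1-KO and from 7.92 to 12.67 in Isl1-KO. The highest α-cell sum, 53602, came from Ldb1-KO replicate 1, where Gcg lay at 9.81, its lowest in Ldb1-KO. The next highest Ldb1-KO sum was 17537. Ttr reached 15.66 in Ldb1-KO, and the highest gene weighs most in a sum of unlogged values. Isl1-KO replicate 4 held the lowest Gcg of its group, 7.92, with Chgb at 18.29, Scg2 at 13.75 and Scgn at 9.73. Its Chga lay at 17.51, Scg3 at 13.66 and Vgf at 6.925. Replicate 2 held the highest Gcg, 12.67, with Chgb at 18.29, Scg2 at 14.50 and Scgn at 9.71. Its Chga lay at 15.42, Scg3 at 14.13 and Vgf at 6.14. These are single libraries, and a link with Gcg was not tested.

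The 6 markers of δ-, PP- and ε-cells summed to 612 to 1396 in WT, 1112 to 2531 in Ldb1-KO and 535 to 3464 in Isl1-KO. Of them, Sst, the somatostatin gene, rose in Ldb1-KO and Rbp4 fell in Isl1-KO. The 8 β-cell markers all fell in Ldb1-KO, with a median log2 difference of -2.95, and 5 of them fell in Isl1-KO, with a median of -1.16. The 8 acinar markers summed to 56033 in WT replicate 1, where Chgb was lowest among WT libraries, and to 29.0 to 61.0 in the other WT libraries. They summed to 55.8 to 2245 in Ldb1-KO and to 27.2 to 813 in Isl1-KO. Of 6 duct markers, Cftr and Spp1 rose in each knockout, while Krt19 and Sox9 stayed at means of at most 1.23 in every group. Endothelial, immune, mesenchyme and glia markers summed to at most 55.1 in any library, with up to 4 of 4 endothelial genes at 0. The part of these cells in the granin results was not tested.

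Among other genes of the regulated secretory pathway, changes ran in both directions. Beside the counts in each list below stand the shares called over all genes tested, 21.7% in Ldb1-KO and 15.4% in Isl1-KO. Of the granin relatives, Scg5, which encodes the chaperone of the convertase PCSK2, had a mean of 11.85 ± 0.11 in WT, 13.23 ± 0.10 in Ldb1-KO and 13.44 ± 0.44 in Isl1-KO. It rose by 1.38 and 1.60 (limma SE 0.14 and 0.15, adjusted p = 5.81e-08 and 6.65e-08). Every knockout library was above every WT library. Pcsk1n, named after its values were seen, encodes an inhibitor of PCSK1 and differed by -0.16 and 0.43 (adjusted p = 0.908 and 0.785 by limma).

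Of 10 prohormone processing genes tested, 1 rose and 4 fell in each knockout, with a median difference of -0.15 in Ldb1-KO and -0.26 in Isl1-KO, against -0.013 and -0.029 over all genes. Pam, the gene of the peptide-amidating enzyme, rose by 1.42 in Ldb1-KO (SE 0.12) and by 1.19 in Isl1-KO (SE 0.14). Ero1lb, a thiol oxidase gene of the endoplasmic reticulum that aids proinsulin folding, fell by 2.38 (SE 0.22) in Ldb1-KO and by 1.04 (SE 0.24) in Isl1-KO. Enpep, which encodes a membrane aminopeptidase, fell by 1.62 and by 1.65. The largest adjusted p of these 6 values was 0.00516 by limma.

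Of 23 granule cargo and membrane genes, 2 rose and 9 fell in Ldb1-KO, and 2 rose and 4 fell in Isl1-KO, with medians of -0.16 and -0.054. Tmem27, which encodes the granule and membrane protein collectrin, rose by 2.14 (SE 0.17) in Ldb1-KO and by 1.25 (SE 0.18) in Isl1-KO. Cadps, which encodes a priming factor of granule release, fell by 1.44 (SE 0.10) in Ldb1-KO and by 0.88 (SE 0.12) in Isl1-KO. Sytl4, which encodes the granule docking protein granuphilin, fell by 1.83 (SE 0.14) and by 1.13 (SE 0.15). Slc30a8, the gene of the zinc transporter of insulin granules, fell by 1.91 (SE 0.17) in Ldb1-KO and by 1.78 (SE 0.19) in Isl1-KO. The largest adjusted p of these 8 values was 4.01e-05 by limma.

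Of 17 genes of granule formation, 1 rose and 4 fell in Ldb1-KO and 0 rose and 2 fell in Isl1-KO, with medians of -0.22 and -0.11. At an unadjusted limma p under 0.05, 2 were higher in Isl1-KO. Bace2, a protease gene of β-cells, fell by 1.93 (SE 0.14) and by 1.27 (SE 0.16). Ica1, which encodes a BAR-domain protein that acts in granule budding, fell by 0.50 (SE 0.10) in Ldb1-KO, and Arf1, a Golgi GTPase gene, fell by 0.53 (SE 0.12) and by 0.43 (SE 0.13). The largest adjusted p of these 5 values was 0.0321 by limma.

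Of 13 other EF-hand calcium sensor genes, 3 rose and 1 fell in each knockout, with medians of 0.10 and 0.019. Calb1, which encodes calbindin, a calcium-binding protein of the same hexa-EF-hand family as secretagogin, rose while Scgn fell. Its mean was 6.72 ± 0.31 in WT, 10.30 ± 0.19 in Ldb1-KO and 8.01 ± 0.84 in Isl1-KO. The limma differences from WT were 3.57 (SE 0.24, adjusted p = 3.98e-10) and 1.29 (SE 0.27, adjusted p = 0.00199). The Ldb1-KO libraries, at 10.01 to 10.54, were all above WT, at 6.46 to 7.24, and the Isl1-KO libraries, at 7.04 to 8.99, overlapped with WT. Kcnip1, the gene of a potassium channel subunit that binds calcium, fell by 1.58 and by 1.15. Necab1, another EF-hand gene, rose by 1.30 in Ldb1-KO, and its relative Necab2 rose by 1.13 in Isl1-KO.

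Of 13 CREB and REST regulator genes, 2 rose and 0 fell in Ldb1-KO, and 1 rose and 0 fell in Isl1-KO, with medians of -0.049 and 0.084. Over all genes tested, the shares called were 21.7% in Ldb1-KO and 15.4% in Isl1-KO. At an unadjusted limma p under 0.05, 0 were lower in either knockout. Crem, which encodes activators and repressors that bind CREs, rose by 1.06 (SE 0.13, adjusted p = 1.47e-06 by limma) and by 0.92 (SE 0.14, adjusted p = 8.90e-05). Egr1, an immediate-early gene, rose by 1.27 (SE 0.28, adjusted p = 0.00242) in Ldb1-KO. Rest, the repressor gene named after its values were seen, lay at 0.81 in WT, 1.08 in Ldb1-KO and 0.50 in Isl1-KO, near the bottom of the scale, and did not pass (adjusted p = 0.763 and 0.776 by limma).

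**Figure D5:**
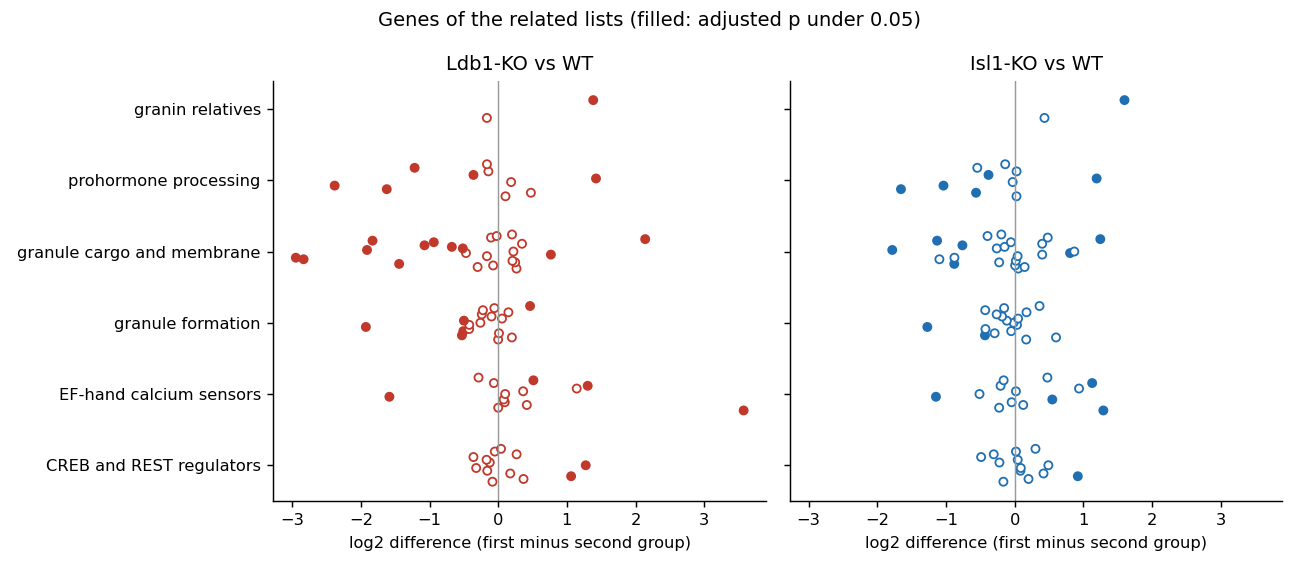
Log2 difference (x axis) of every tested gene of the 6 related lists in Ldb1-KO against WT and Isl1-KO against WT, with filled points for an adjusted p under 0.05. The genes of each longer list lie on both sides of 0, with Calb1 the highest at 3.57 in Ldb1-KO.

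The genes whose pattern over the 18 libraries was most like each member were found as those with the smallest root-mean-square (RMS) difference after each gene was centred on its own mean. Scgn had the smallest RMS differences, and its own spread was 0.53. They were 0.19 on the log2 scale for Vdac1, a mitochondrial outer membrane channel gene, and 0.20 for Gjd2, the connexin gene of β-cell gap junctions. Gjd2 had means of 10.80 in WT, 9.75 in Ldb1-KO and 9.47 in Isl1-KO. For Scg2, with a spread of 0.70, the nearest genes were Sirpa at 0.24 and Slc4a7 at 0.25, both also lowest in Ldb1-KO.

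Chga, with a spread of 0.86, was matched by Capsl at 0.31 and Ube2l6 at 0.34, and Scg3, with a spread of 0.66, by Btbd3 and Efcab2, both at 0.34. For Vgf, with a spread of 1.02, they were Fkbp11 and Ramp2, both at 0.49. Chgb, with a spread of 1.72, was matched by Mro at 0.55, which was listed at 0 in all WT libraries, and Lrrtm4 at 0.58. A member with a wider spread can have larger RMS differences, so these values do not rank the members against each other. The ranking for each member describes shape over libraries that share their groups, and nothing more.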

How the data were processed

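The deposited table holds, per the file headers, the authors' expression values for 18 RNA libraries on a log2 scale, with the authors' log2 fold changes, p-values and FDRs for 3 comparisons. The normalization is not stated. A common highest value and shared top steps led to its reading as log2 of quantile-normalized values plus 1, which is an inference. The submitters' processing notes name edgeR, HOMER and build mm9, while aligner and counter were not found in any label or header. Columns were matched to samples by the descriptions in the labels, with 0 per-sample columns unused. No 2 libraries were identical.

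A gene was tested if its unlogged values averaged 1 or more across all 18 libraries, which left 13501. Group differences were tested in 1 fit with limma 3.58.1 in R 4.3.3 (trend and robust settings, statmod 1.5.0), adjusted by Benjamini-Hochberg over all genes tested, at a threshold of 0.05. SE and 95% intervals are limma's moderated ones. Fold changes are of values plus 1. Ranks were taken within each library over all 21913 genes, with ties averaged. On simulated data with 100 genes changed by a log2 of 1, the fit recovered 87% in the Ldb1-KO and 79% in the Isl1-KO comparison. A further 100 genes were changed by a log2 of 2. Of all calls on these data, 12 of 198 and 5 of 184 were false.

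The 6 members were named first, then Ldb1 and Isl1, up to 3 called genes per related list and comparison with the smallest p, and the 2 nearest patterns per member. Members and lists were chosen with earlier results of these data known. A few listed genes are not analysed here. The LDB1 and ISL1 peak lists are not used, for want of an annotation of their build. Older symbols were matched through RefSeq. The fold change of a gene with near-identical copies, such as the insulin and calmodulin genes, may include reads of the copy. Alternatives covered pseudocount, filter, ranks, scaling, moderation, samples fitted, a replicate block and libraries left out.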

Additional observations from a re-analysis of the deposited data

Results flagged for a closer look

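In 4 of 18 gene and group combinations, 1 library lay far from the others of its group relative to the group's whole range. Chance flags about 1 in 20 groups of untied values, a rate that does not carry over here, since many of these values are tied. Chgb in Isl1-KO replicate 3 lay at 15.66, below the other 4 libraries, and Chgb in WT replicate 1 at 13.96, below the other WT libraries. Chga in Isl1-KO replicate 4 and in Ldb1-KO replicate 8 lay at 17.51, above the rest of each group. All 4 values stand on the coarse steps of the highest genes, and in Ldb1-KO the other 7 libraries share the value 17.01 for Chga, 1 step lower.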

How the results depend on the processing

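Each of the 6 members in the 3 comparisons was refitted under 31 alternatives, of which the 2 that leave out Ldb1-KO replicates 1 to 4 or 5 to 8 were chosen after seeing the data. Chgb, Scg2 and Scgn in Ldb1-KO against WT, and Chgb, Vgf and Scgn in Isl1-KO against WT, kept their direction and their side of the threshold in every one. Other calls changed as follows, with values as log2 differences, and the cause was not tested. With no filter on low values, Scg3 in Ldb1-KO against WT was 0.96 (adjusted p = 0.0736 by limma) and 628 genes were higher in Isl1-KO than in WT. Between the knockouts, the same setting gave Vgf -1.31 and Scgn 0.39, neither called, so that limma called 1 member higher and 0 lower (2 and 2 at an unadjusted p under 0.05). On normal scores of ranks, whose unit is not log2, Chga was 0.052 against WT in Ldb1-KO and 0.045 between the knockouts, Scg2 in Isl1-KO was -0.14, 1 member was called lower in Isl1-KO and 1 higher between the knockouts. Without the trend and robust settings, and with only the compared groups fitted, Scgn between the knockouts stayed 0.39 but was not called, which left 1 member higher. With only the compared groups, Scg3 in Ldb1-KO against WT was 0.96 (adjusted p = 0.0529 by limma).

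Without Isl1-KO replicates 1 to 3, Chga in Isl1-KO against WT was 1.07 and called, with 510 genes higher and 603 lower. Between the knockouts the same setting gave Chga 0.49, Vgf -1.84 and Scgn 0.27, with 0 members called higher and 0 lower and 153 genes higher and 183 lower. At an unadjusted limma p under 0.05, 0 members were higher and 1 lower in that setting. Without Isl1-KO replicates 4 and 5, Chga in Isl1-KO against WT was -0.23, and between the knockouts Scg2 was -0.66 and called, Vgf -0.95 and not called, with 1669 genes higher and 1335 lower. Without Ldb1-KO replicates 1 to 4, Scg3 and Vgf against WT were 0.43 and 1.27, Scg3 in Isl1-KO was 0.54 and called, and between the knockouts Scg2 was -0.90, Scg3 -0.11 and Vgf -0.71. Without Ldb1-KO replicates 5 to 8, the values between the knockouts were 1.21 for Chga, 0.95 for Scg3 and 0.18 for Scgn, with 1 member and 543 genes higher.

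Leaving out 1 library at a time, Scg3 in Ldb1-KO against WT ranged from 0.75 to 1.08 and Chga in Isl1-KO against WT from -0.14 to 0.49. Between the knockouts Chgb ranged from -0.078 (without Isl1-KO replicate 3) to 0.58, Scg2 from -0.63 to -0.44, Scg3 from 0.21 to 0.53, Vgf from -1.46 to -1.10 and Scgn from 0.34 to 0.45. Members called higher there ranged from 1 to 2 and lower from 0 to 2, and genes from 561 to 1207 higher and from 520 to 1031 lower. Isl1-KO replicate 3 gave the fewest.

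The replicate numbers were fitted as a block as well, though same-numbered libraries deviated together in only 1 or 2 of 5 pairs per comparison (r from -0.17 to 0.26). With the block, Scgn between the knockouts was 0.26 (adjusted p = 0.180 by limma) and 1 member was called higher; no other call of the 6 members changed. Depth is unknown, and steps of up to 1.02 limit Chga, Chgb, Scg2 and Scg3.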
